A study of Canis lupus familiaris with 55 samples.

Results

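Collagen chain genes were followed through the RNA of canine embryonic gonads during the days when ovary and testis first part. They were chosen by name: every locus of the guided transcript assembly whose gene name was COL, a number, A and a number. The rule named 45 of 58781 loci, and 23594 of all loci carried an annotated gene. Of the 45, 42 lay on the strand of the chain gene and held 43 chain genes, since COL6A5 and COL6A6 shared 1 locus. The other 3 lay on the opposite strand inside COL4A2, COL8A1 and COL13A1, and the one inside COL4A2 also carried the name of a further gene, CARKD. The locus of COL7A1 was shared with UCN2, and no locus was named COL6A2. By type, 11 of the 42 loci encoded fibrillar chains, 6 type IV chains of basement membranes and 25 other chains.

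The series held 55 polyadenylated RNA libraries of gonads from a dog model of SRY-negative XX disorder of sex development (DSD). XX DSD embryos were XX, lacked SRY and were homozygous or heterozygous for a guanine insertion on chromosome 9, so that a library came from an embryo at risk and not from one known to be affected. Their XY littermates carried SRY and the insertion, and both came from a pedigree of American cocker spaniel and beagle descent. XX and XY controls came from wild-type beagle parents. Another 2 control libraries were pools of 6 XX and of 7 XY embryos at d34, a mix of beagle and Labrador retriever by the series' design text, though the study's embryo list counts them with the beagle controls. Each of the other 53 libraries was 1 embryo. There were 9 XX DSD and 4 XY littermate embryos at d35. At d37-39 there were 8 XX DSD, 6 XX control, 5 XY littermate and 6 XY control embryos. Of these, in that order, 2, 3, 1 and 3 were of d37 and the others of d39. The latest stage held 6 XX DSD embryos at d41-44, 3 XX controls at d44, 3 XY littermates at d41-44 (none past d42) and 3 XY controls at d44. The embryos labelled d41, of both sexes, stand at a younger age in the study's embryo list, and the labels were followed here. The study's methods put these embryos between d39 and d42 by developmental criteria and placed them in its oldest group. The controls came from 1 litter at d37, 1 at d39 and 1 at d44, each holding both sexes, and the pedigree groups from 2 to 4 litters each.

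Collagens are extracellular proteins whose chains wind around each other in a helix. Fibrillar collagens form the fibres of connective tissue, type IV collagen forms the sheet of the basement membrane that surrounds epithelia and, in a testis, the cords of Sertoli cells, and type VI collagen forms beaded filaments around cells. Other collagens sit on the surface of fibrils (types IX, XII, XIV, XVI and XXI), span the cell membrane (XIII, XXIII and XXV) or join basement membranes to the matrix (XV and XVIII).

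Values are FPKM, fragments per kilobase of transcript and per unit of mapped reads, so that levels of different chains can be set side by side per length. SOX9, the testis gene, lay between 0.853 and 10.4 FPKM in the libraries of XX embryos and between 52.5 and 92.8 in those of XY embryos. The relative depth, read from the steps of low values, differed 7.16-fold between the deepest and the shallowest library. Its median was 0.308 of the deepest library in XX DSD embryos at d41-44 and 0.824 in XX controls at d44. The share of FPKM in loci with no annotated gene ran from 43 to 82.9% in XX DSD embryos at d35 and from 7 to 10.7% in XX controls at d37-39. At d37-39 it ran from 10.1 to 58.1% in XX DSD embryos, 8.24 to 71.1% in XY littermates and 8.86 to 66% in XY controls. The 2 XX DSD embryos of d37 had 10.4 and 10.1%, and those of d39 23.2 to 58.1%. The part of this share in the comparisons was not tested. The study pooled libraries for sequencing by group, so pedigree and sequencing pool cannot be told apart. In bulk tissue fewer cells of a type and less RNA per cell cannot be told apart either. Replicates were separate embryos from few litters. A single XX DSD library of d35, replicate 8, stood apart, with the lowest FOXL2 of the XX embryos (2.87 FPKM), 82.9% of FPKM in unannotated loci and the lowest value of its group for COL4A1, COL5A1, COL6A3, COL15A1, COL21A1 and COL27A1. XY control replicate 2 of d37-39 stood apart as well, with 66% of FPKM in unannotated loci, where the other 5 had 8.86 to 11.5%, and with the lowest value of its group for COL1A1, COL1A2, COL3A1, COL5A2 and COL11A1 and the highest for COL9A1.

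Collagen RNA in these gonads was dominated by 3 fibrillar chains. COL1A1 and COL1A2, which form type I collagen, and COL3A1, the chain of type III collagen, together made up a median of 51.4 to 67.2% of the summed FPKM of all 42 chain loci, depending on the group. COL3A1 was the highest chain in every group of embryos, with group medians between 742 and 1409 FPKM. Of the 42 loci, 26 had a mean of at least 1 FPKM in every embryo group. Another 6 were below 1 FPKM in every one: COL5A3 and COL11A2 among the fibrillar chains, COL10A1 of growth-plate cartilage, COL17A1 of the skin's anchoring hemidesmosomes, COL19A1 and COL20A1. The remaining 10 were below 1 FPKM in some groups only.

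Several chain loci were neighbours, and the libraries did not mark strand, so that reads of overlapping genes cannot be told apart. COL9A1, on the minus strand at chr12:32755204-32847276 of the CanFam3 assembly, overlapped COL19A1 on the plus strand by 8291 bases. The pair COL4A6 and COL4A5, head to head on the X chromosome, overlapped by 2099 bases, and COL4A4 and COL4A3 on chromosome 25 by 602 bases. COL4A1 and COL4A2 lay 108431 bases apart on chromosome 22, and COL3A1 and COL5A2 lay 11075 bases apart on chromosome 36.

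The first comparison asked how the chains differ between the sexes in wild-type gonads at d37-39. COL9A1 was the extreme case, almost absent from XX controls and among the abundant chains of XY controls. XX controls had more RNA of the fibril chains COL1A2, COL5A2 and COL11A1, of the type VI chains and of the fibril-surface chains COL12A1, COL14A1 and COL21A1. XX controls had less of COL4A1 and COL4A2, of COL15A1 and COL18A1 and of COL16A1. Of the 42 loci 32 had a mean of at least 1 FPKM in one of the groups and were tested. Among them 11 were higher and 7 lower in XX controls at an adjusted p under 0.05 (limma on log2(FPKM + 1), Benjamini-Hochberg adjustment over all loci tested), where 26.5% of all loci tested passed (12.7% higher and 13.8% lower). The median log2 fold change was 0.05 over the chains and -0.02 over all loci. The libraries of the sexes did not overlap for 11 chains, against 17.3% of all loci. Without XY control replicate 2 all 18 calls remained and COL5A1 and COL8A1 joined them, with log2 fold changes of -0.34 and 0.42 (adjusted p 0.0451 and 0.0283, limma).

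**Figure D1:**
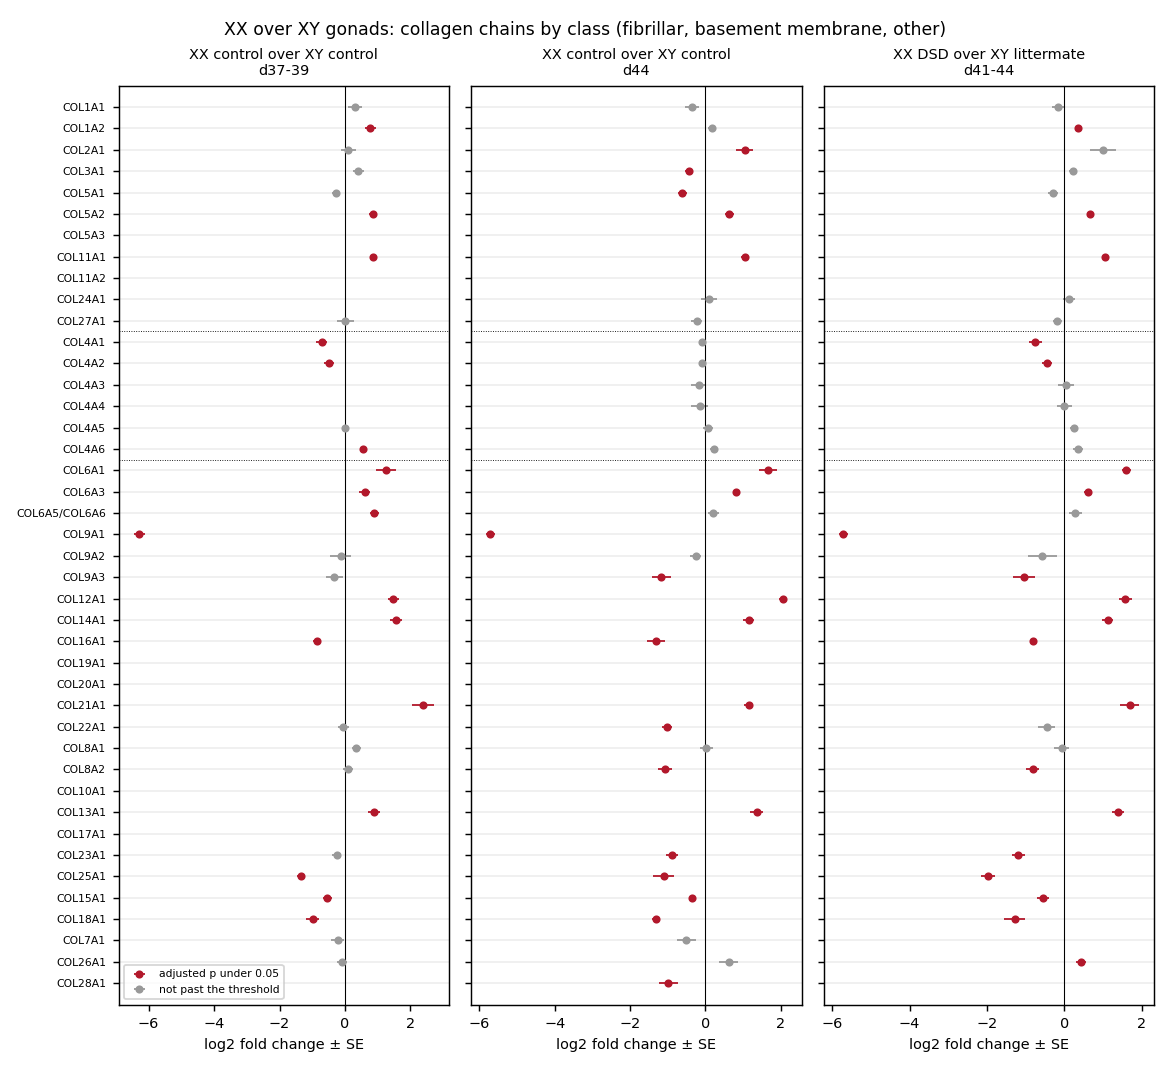
Log2 fold change ± SE of each tested collagen chain, XX over XY, in controls and in the pedigree, with 1 panel for each comparison and the chains down the page. Red dots are chains with an adjusted p under 0.05 and dotted lines part the fibrillar, basement membrane and other chains. COL9A1 lies far left of all other chains, at -6.28 in controls at d37-39.

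Of the fibrillar chains, 8 were tested, 3 were higher in XX controls and none passed as lower. COL1A2 had between 580 and 722 FPKM in XX controls, with a median of 603, and between 224 and 511 with a median of 365 in XY controls. Every XX library was above every XY library, and the log2 fold change was 0.78 (SE 0.16, adjusted p 0.00313, limma). COL5A2, a chain of type V collagen, which is built into type I fibrils and limits their width, had 69.4 to 83.7 FPKM in XX controls (median 73.7) against 28.9 to 48.7 in XY controls (median 43.1). These groups did not overlap either, and the log2 fold change was 0.85 (SE 0.12, adjusted p 0.000133, limma). COL11A1, of the related type XI collagen, had 23.6 to 33 FPKM in XX controls and 11.5 to 17 in XY controls, again with no overlap (log2 fold change 0.85, SE 0.10, adjusted p 3.88e-05).

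None of the other fibrillar chains was called, among them COL1A1 and COL5A1, the partners of COL1A2 and COL5A2. COL1A1 averaged 440.4 ± 76.9 FPKM in XX controls and 375 ± 141 in XY controls (SD, n = 6 each), and its adjusted p was 0.385 (limma). COL3A1 averaged 1061 ± 131 in XX controls and 822 ± 215 in XY controls, with an adjusted p of 0.111. COL5A1, the partner of COL5A2, averaged 130 ± 19.4 in XX controls and 157 ± 25.1 in XY controls, a log2 fold change of -0.27 with an adjusted p of 0.139. COL2A1, best known from cartilage, averaged 49.5 ± 17.2 in XX controls and 44.8 ± 11.1 in XY controls (adjusted p 0.777). COL27A1, a short fibrillar chain also known from cartilage, averaged 12.6 ± 1.79 in XX controls and 13.7 ± 6.88 in XY controls (adjusted p 0.976). COL24A1 averaged 0.884 FPKM in XX controls and 0.773 in XY controls and was not tested.

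The largest difference among the chains was in type IX collagen, a heterotrimer of the COL9A1, COL9A2 and COL9A3 chains that coats cartilage fibrils. COL9A1 had a lowest, median and highest value of 0.712, 1.22 and 2.01 FPKM in XX controls and of 120, 187 and 228 FPKM in XY controls. The means, 1.29 ± 0.516 and 178 ± 40.3 (SD, n = 6 each), differed 137-fold, with XX lower, a log2 fold change of -6.28 (SE 0.18) and an adjusted p of 1.78e-10 (limma). COL9A1 passed the minimum of 1 FPKM in both groups. Neither of the other 2 chains of the trimer showed such a gap. COL9A3 averaged 4.4 ± 0.413 in XX controls and 6.44 ± 3.72 in XY controls (adjusted p 0.411), and COL9A2 averaged 1.72 ± 1.17 in XX controls and 2.08 ± 1.42 in XY controls (adjusted p 0.803). In XY controls COL9A1 was thus far above either partner per length, whereas in XX controls all of them were low.

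Since cartilage also makes type IX and type II collagen, its other markers were read. ACAN, the aggrecan core protein that defines cartilage, did not exceed 0.321 FPKM in any library and COMP did not exceed 0.68. MATN1 was listed at 0 in 9 libraries and reached 3.52, while MATN3 had 0.911 to 5.27 and CHAD 0.918 to 5.49. HAPLN1, a link protein of the matrix, was present in all libraries, at 7.77 to 57.8 FPKM (median 25.8), and EPYC, a small proteoglycan, had 0.328 to 15.9. The summed level of the 7 cartilage markers measured ran from 17.5 to 30.8 FPKM in XX controls and from 28.8 to 44.6 in XY controls at d37-39, and 3 of 5 markers tested were lower in XX controls. Markers of Leydig cells, the steroid-making cells of the testis, summed to 383 to 2315 FPKM in XX controls and to 4068 to 7515 in XY controls, and 3 of 3 were lower in XX. Of the pre-granulosa markers, 7 of 7 were higher in XX controls. The part of these cell types in the chain levels was not tested.

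COL12A1, COL14A1, COL16A1 and COL21A1 also belong to the collagens that attach to fibrils. COL21A1 had 20.3 to 66.6 FPKM in XX controls (median 46.2) and 4.05 to 14.8 in XY controls (median 7.2), a log2 fold change of 2.38 (SE 0.34, adjusted p 0.000187, limma), 5.65-fold by the means. The groups did not overlap, and within each sex the 3 embryos of d39 were all above the 3 of d37. COL14A1 had 45.3 to 64 FPKM in XX controls and 10.2 to 26.2 in XY controls (log2 fold change 1.55, SE 0.19, adjusted p 4.91e-05). COL12A1 had 16.3 to 29.1 FPKM in XX controls and 5 to 8.92 in XY controls (log2 fold change 1.47, SE 0.17, adjusted p 2.36e-05). Both were thus higher in every XX library than in any XY library. COL16A1 went the other way, with 32.5 to 48.9 FPKM in XX controls and 54.2 to 89.5 in XY controls (log2 fold change -0.86, SE 0.13, adjusted p 0.000209).

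**Figure D2:**
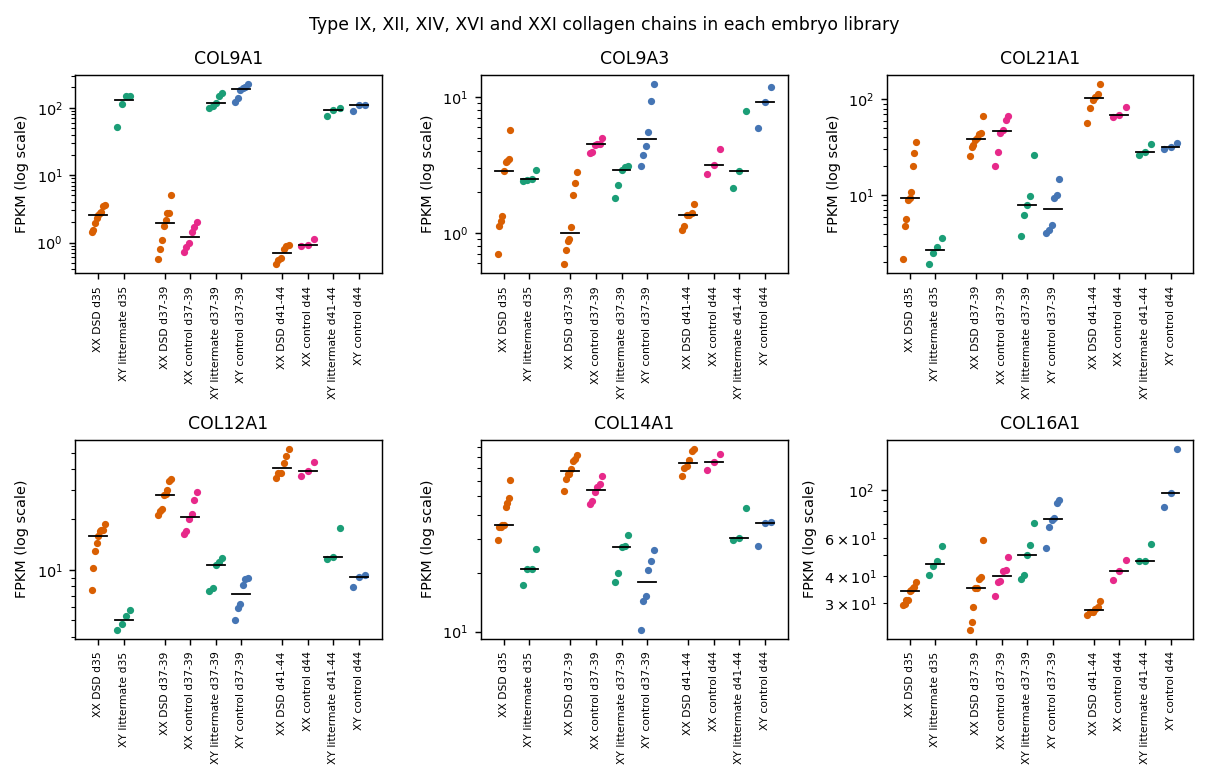
FPKM (log scale) of 6 fibril-associated chains in each embryo library, by group, where points are libraries and black lines are group medians. COL9A1 stays at or below 5.13 FPKM in every XX library and at or above 52 in every XY embryo library, while COL21A1 is higher in the later groups of both sexes.

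In the basement membrane class COL4A1 and COL4A2, the ubiquitous chains of type IV collagen, were lower in XX controls, and COL4A6 was higher. COL4A1 had 119 to 155 FPKM in XX controls (median 130) and 145 to 280 in XY controls (median 254). The ranges overlapped, since 2 XY libraries, at 145 and 148, lay within the XX range, and the log2 fold change was -0.71 (SE 0.18, adjusted p 0.00846, limma). COL4A2 averaged 106 ± 6.76 in XX controls and 153 ± 39 in XY controls (log2 fold change -0.49, SE 0.16, adjusted p 0.0337), and it was no longer called in 9 of 12 fits that left 1 library out. COL4A6 averaged 20.6 ± 1.93 in XX controls and 13.7 ± 2.27 in XY controls (log2 fold change 0.56, SE 0.10, adjusted p 0.00109). Its neighbour COL4A5 averaged 28.9 ± 2 in XX controls and 29.1 ± 3.95 in XY controls (adjusted p 0.986). COL4A3 and COL4A4, best known from the kidney's filter, were below 1 FPKM in both groups.

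Chains that assemble in 1 molecule could be set against each other within a library, which needs no scaling between libraries. The log2 ratio of COL1A1 to COL1A2 was -0.51 ± 0.14 in XX controls and -0.03 ± 0.18 in XY controls at d37-39 (SD, n = 6 each). That of COL4A1 to COL4A2 was 0.33 ± 0.07 in XX controls and 0.55 ± 0.05 in XY controls. That of COL4A5 to COL4A6 was 0.49 ± 0.08 in XX controls and 1.09 ± 0.14 in XY controls, and that of COL9A1 to COL9A3 was -1.86 ± 0.64 in XX controls and 4.94 ± 0.77 in XY controls. In each of these 4 pairs every XX library lay below every XY library at d37-39. At d44 the linear ratios of COL4A1 to COL4A2 overlapped, with 1.29 to 1.4 in XX controls and 1.21 to 1.41 in XY controls, as did those of COL4A5 to COL4A6, with 1.42 to 1.44 in XX controls and 1.32 to 1.89 in XY controls. In the pedigree the COL1A1 to COL1A2 ratio overlapped at d35 (0.34 to 0.649 in XX DSD embryos and 0.433 to 0.654 in XY littermates) and at d37-39 (0.395 to 0.807 in XX DSD embryos and 0.762 to 1.02 in XY littermates). The COL4A5 to COL4A6 ratio overlapped there at d37-39 (1.36 to 2.08 in XX DSD embryos and 1.44 to 2.63 in XY littermates). It did so again at d41-44 (1.61 to 2.07 in XX DSD embryos and 1.83 to 2.3 in XY littermates). The differences at d37-39, XX minus XY in controls, were -0.48, -0.22, -0.60 and -6.80 in that order, each with a p of 0.00216 in a two-sided exact permutation test, the smallest that 6 against 6 libraries can give, and the same adjusted over the 4 pairs. COL4A3 and COL4A4 were too low for a ratio, and COL6A1 had no COL6A2 locus to be set against.

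**Figure D3:**
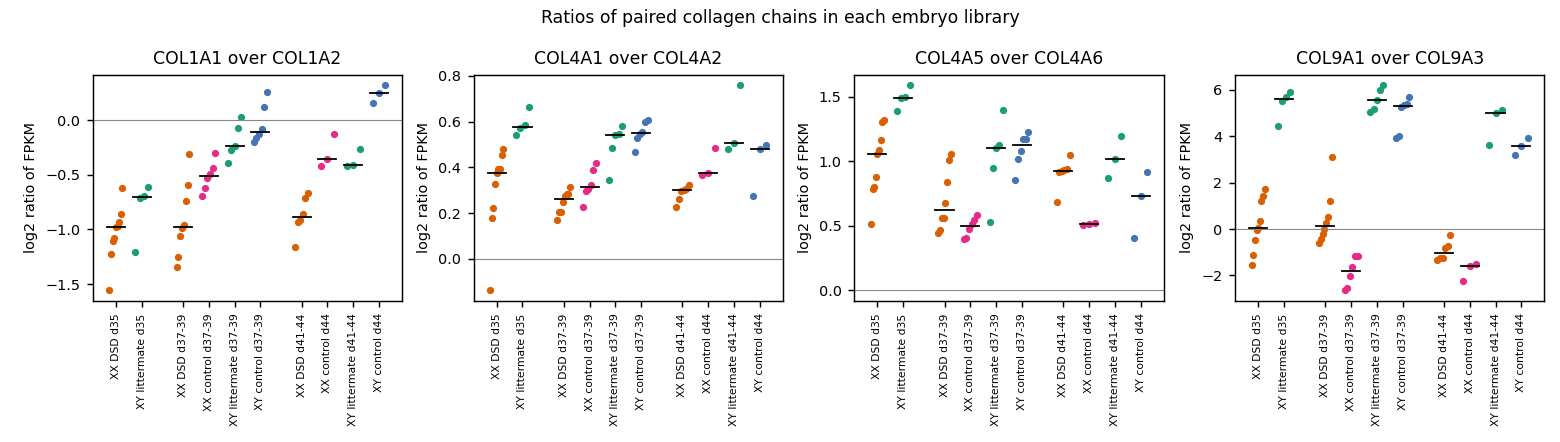
Log2 ratio of FPKM of paired chains (COL1A1 over COL1A2, COL4A1 over COL4A2, COL4A5 over COL4A6, COL9A1 over COL9A3) in each embryo library, by group, where points are libraries and black lines are medians. In controls at d37-39 the XX points lie below the XY points in all 4 panels.

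Type VI collagen was higher in XX controls in all 3 of its loci. COL6A1 had 122 to 257 FPKM in XX controls (median 168) and 42.6 to 140 in XY controls (median 68), with a log2 fold change of 1.24 (SE 0.31, adjusted p 0.00857, limma). The ranges overlapped. By litter, which cannot be told apart from age here, the XX embryos had 204 to 257 FPKM at d39 and 122 to 133 at d37, and the XY embryos 57.6 to 140 at d39 and 42.6 to 78.4 at d37. COL6A3 averaged 63.4 ± 12.1 in XX controls and 41.8 ± 8.97 in XY controls (log2 fold change 0.60, adjusted p 0.0179), and the joint locus of COL6A5 and COL6A6 averaged 41 ± 4.72 in XX controls and 21.9 ± 5.54 in XY controls (log2 fold change 0.90, adjusted p 0.000437).

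The membrane-spanning chains went both ways. COL13A1, found at cell adhesions and neuromuscular junctions, averaged 26.1 ± 4.99 in XX controls and 13.8 ± 4.29 in XY controls (log2 fold change 0.90, SE 0.19, adjusted p 0.00294, limma). COL25A1, known from neurons, averaged 0.742 ± 0.187 in XX controls and 3.42 ± 0.659 in XY controls (log2 fold change -1.34, SE 0.13, adjusted p 5.73e-06). COL25A1 passed the minimum of 1 FPKM only through the XY group, so that a difference was built into its being tested.

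Both multiplexins, which sit in and beside basement membranes, were lower in XX controls. COL18A1, whose end can be cut off as endostatin, had 48 to 64.3 FPKM in XX controls (median 49.9) and 59.1 to 158 in XY controls (median 108), with overlap through the lowest XY library, a log2 fold change of -0.99 (SE 0.19) and an adjusted p of 0.00178 (limma). COL15A1 averaged 40.5 ± 4.3 in XX controls and 60.3 ± 13.5 in XY controls (log2 fold change -0.54, adjusted p 0.0123). COL26A1, a chain first described in testis and ovary, averaged 68.3 ± 8.29 in XX controls and 74.1 ± 15.9 in XY controls (adjusted p 0.668).

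**Figure D4:**
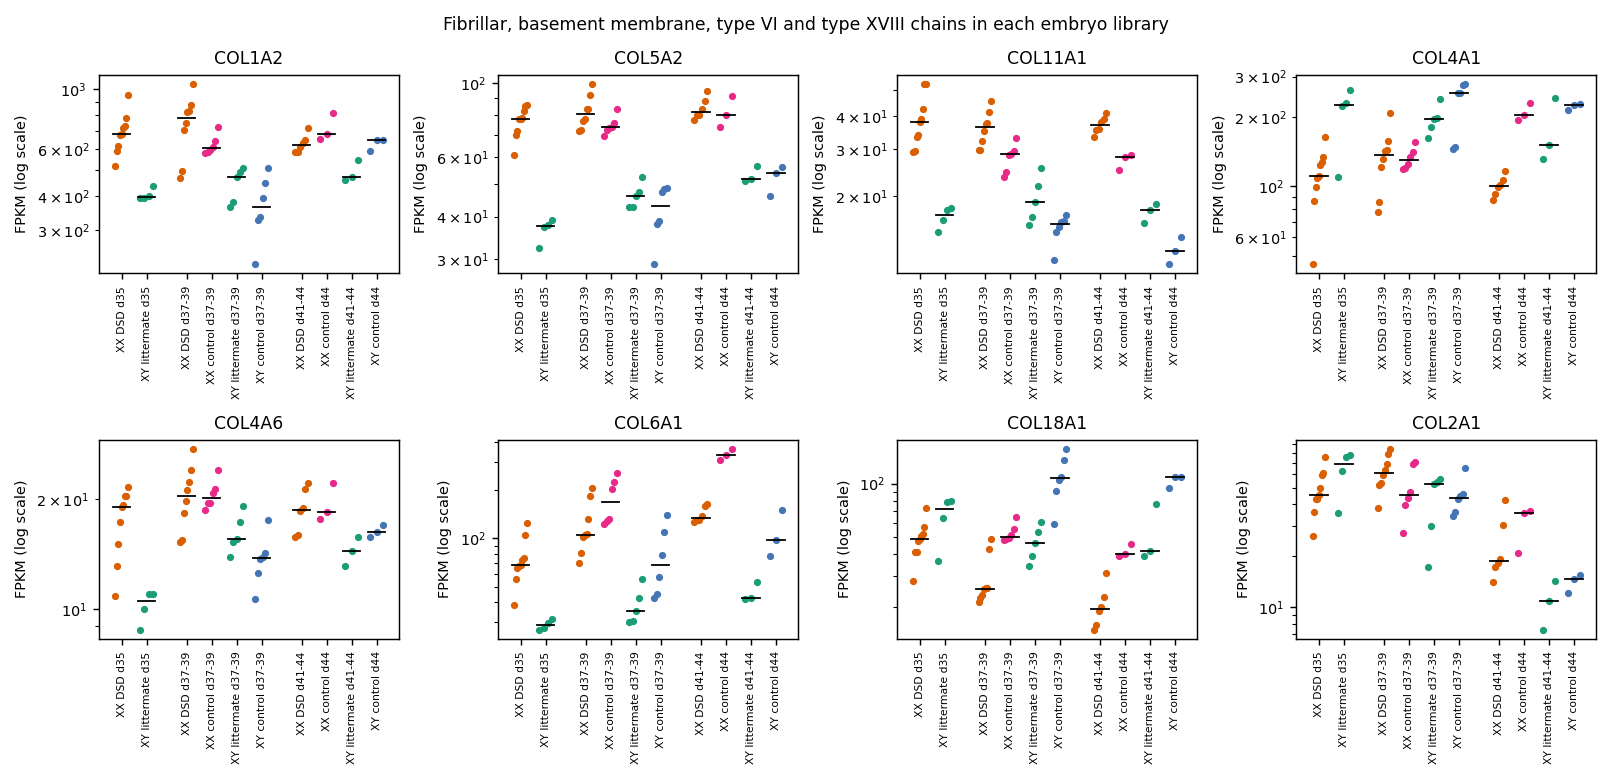
FPKM (log scale) of 8 fibrillar, basement membrane, type VI and type XVIII chains in each embryo library, by group, where points are libraries and black lines are medians. COL5A2 and COL11A1 are higher in the XX groups than in the XY groups at each age, and COL6A1 is highest in the 3 XX controls of d44, at 311 to 363 FPKM.

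Genes that make, trim, bind and break down collagen were read from lists drawn up for this tissue. Of the 18 genes of synthesis and folding tested, 2 were higher and 4 lower in XX controls at d37-39 (median log2 fold change -0.04, against -0.02 over all loci), to be read, like the lists that follow, against the 26.5% of all loci that passed. LEPREL1, a prolyl 3-hydroxylase, averaged 9.9 ± 1.28 in XX controls and 18.2 ± 2.9 in XY controls, and FKBP10, a folding factor, 94.8 ± 8.42 in XX controls and 61.4 ± 10.6 in XY controls (adjusted p 0.000145 and 0.00102, limma). Of 12 genes of procollagen trimming and crosslinking, 1 was higher and 2 were lower. LOXL4, a lysyl oxidase-like enzyme, averaged 1.36 ± 0.246 in XX controls and 8.92 ± 5.54 in XY controls (log2 fold change -1.92, adjusted p 0.000205).

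Of the 7 collagen receptors tested, 1 was higher and 3 were lower in XX controls. GPR56, a receptor for type III collagen, averaged 48.8 ± 4.57 in XX controls and 82.3 ± 15.1 in XY controls (log2 fold change -0.72, adjusted p 0.000598, limma), and DDR1, a receptor kinase, 30.8 ± 1.75 in XX controls and 49 ± 8.93 in XY controls (log2 fold change -0.63, adjusted p 0.00108). Of 7 genes of collagen breakdown, 2 were higher and none passed as lower. MMP2, a gelatinase, averaged 153 ± 13.4 in XX controls and 81.9 ± 23 in XY controls, and MRC2, a receptor that takes up collagen fragments, 26.7 ± 1.89 in XX controls and 16.9 ± 3.01 in XY controls (log2 fold changes 0.93 and 0.64). SPARC, a collagen-binding protein of the matrix, averaged 636 ± 99.3 in XX controls and 2294 ± 618 in XY controls (log2 fold change -1.82, adjusted p 4.84e-06, limma).

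The same comparison at d44 rested on 3 XX and 3 XY controls of 1 litter. COL9A1 was again nearly absent from XX controls, with 1.13, 0.904 and 0.875 FPKM against 108, 111 and 88.6 in XY controls. Of 36 chains tested, 9 were higher and 12 lower in XX controls, where 24.8% of all loci passed (12.8% higher and 12% lower), and 24 did not overlap, where 44.2% of all loci did not. The median log2 fold change was -0.12 over the chains and 0.04 over all loci. Leaving out the third XX control left 11 calls instead of 21.

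Fibril-surface and type VI chains led the higher group at d44. COL12A1 had 38.7, 44 and 36.3 FPKM in XX controls and 7.87, 9.1 and 9.28 in XY controls (log2 fold change 2.06, SE 0.10, adjusted p 9.1e-05, limma), 4.53-fold by the means. COL6A1 had 311, 363 and 332 FPKM in XX controls and 150, 98.2 and 77.9 in XY controls (log2 fold change 1.67, SE 0.24, adjusted p 0.00446). Neither pair of ranges overlapped. COL13A1 (1.36), COL14A1 (1.15), COL21A1 (1.15), COL11A1 (1.06), COL2A1 (1.05), COL6A3 (0.80) and COL5A2 (0.63) were the other chains called higher, with their log2 fold changes.

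Among the chains lower in XX controls at d44 were 2 fibrillar ones. COL3A1 had 933, 1151 and 1007 FPKM in XX controls and 1443, 1320 and 1409 in XY controls (log2 fold change -0.44, SE 0.10, adjusted p 0.023, limma), and COL5A1 had 118, 146 and 135 in XX controls and 231, 183 and 198 in XY controls (-0.61, SE 0.12, adjusted p 0.0162). Each range was apart from the other. COL16A1 (-1.32), COL18A1 (-1.31), COL9A3 (-1.17), COL8A2 (-1.07), COL22A1 (-1.02) and COL15A1 (-0.36) were lower as well. COL22A1 is known from tissue junctions and COL8A2 from the lattice under vessel and corneal endothelium. COL25A1, COL28A1 and COL23A1 were also called lower but, like COL9A1 at this age, averaged above 1 FPKM in XY controls alone, so that they had to differ to be tested. No type IV chain was called at d44, with COL4A1 at 209 ± 18.3 in XX controls and 223 ± 6.53 in XY controls (SD, n = 3 each, adjusted p 0.436).

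The sexes were also compared within the pedigree at 3 ages. At d35 12 of 32 chains tested were higher and 5 lower in XX DSD embryos than in XY littermates, where 21.4% of all loci passed (8.3% higher and 13.1% lower). The counts were 10 and 2 of 32 at d37-39, where 7.49% of all loci passed (3.41% higher and 4.09% lower), and 10 and 10 of 34 at d41-44, where 28.3% passed (12.8% higher and 15.5% lower). The libraries did not overlap for 11, 11 and 22 chains from the earliest to the latest age, beside 12.8, 6.12 and 29% of all loci. At d35 22 chains were called without XX DSD replicate 8, the library that stood apart, and 11 without XY littermate replicate 2. Among the 12 higher at d35, COL8A1 averaged 2.3 FPKM in XX DSD embryos and 0.841 in XY littermates. It reached the minimum of 1 FPKM through the XX DSD embryos alone, so that it had to differ to be tested. The median log2 fold change of the chains was 0.41, 0.22 and 0.02 from the earliest to the latest age, beside -0.05, -0.28 and 0.00 over all loci. Over loci with an annotated gene the medians were -0.08, -0.01 and -0.01. At d37-39 37554 loci were tested, more than the 23594 that carry an annotated gene, so unannotated loci weigh on the 7.49% and the -0.28. With annotated loci alone 17 chains passed at that age, 11 higher and 6 lower, and the share of all annotated loci that passed is not given here.

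COL9A1 differed at each age. At d35 it had 1.44 to 3.58 FPKM in XX DSD embryos (median 2.52) and 52, 113, 150 and 150 in XY littermates, a log2 fold change of -4.99 (SE 0.26, adjusted p 4.11e-08, limma). At d37-39 it had 0.568 to 5.13 in XX DSD embryos (median 1.96) and 149, 167, 117, 99.3 and 105 in XY littermates (log2 fold change -5.46, SE 0.29, adjusted p 3.15e-08). At d41-44 it had 0.475 to 0.919 in XX DSD embryos (median 0.699) and 92.8, 74.9 and 97.9 in XY littermates (log2 fold change -5.71, SE 0.12, adjusted p 1.39e-08), and here it reached the minimum of 1 FPKM through the XY littermates alone, so that it had to differ to be tested. No XX DSD library came near the lowest XY value at any age.

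Across all 5 comparisons of the sexes, in controls and in the pedigree, 6 chains were called higher in XX every time (COL5A2, COL6A1, COL11A1, COL12A1, COL14A1 and COL21A1) and 2 lower every time (COL9A1 and COL25A1). The 8 were 66.7% of the 12 called in the comparison with the fewest calls and 38.1% of the 21 in that with the most, where the shares over all loci called were 44 and 22.1%. COL25A1 averaged under 1 FPKM in the XX group in 4 of the 5 comparisons and COL9A1 in 2, so that there both had to differ to be tested. All 12 chains called in the pedigree at d37-39 were called in the same direction in controls of that age, which is 66.7% of the 18 called there, and over all loci these shares were 91.2 and 45.7%. At d41-44 16 chains were shared with the controls of d44, or 80% of the 20 called in the pedigree and 76.2% of the 21 in controls, where all loci shared 54.8 and 64.8%. COL9A1, COL23A1 and COL25A1, among those 16, reached 1 FPKM through the XY groups alone at both. COL8A2 and COL26A1 were called in opposite directions at different ages. COL8A2 was higher in XX DSD embryos than in XY littermates at d35 (3.73 ± 1.42, n = 9, against 1.59 ± 0.0912, n = 4) and lower at d41-44 (1.38 ± 0.3, n = 6, against 3.25 ± 0.999, n = 3). COL26A1 was lower at d35 (95.3 ± 24.1 against 139 ± 10.3) and higher at d41-44 (46 ± 7.79 against 33.3 ± 1.72), but with 1 library left out it kept the call in only 5 of 13 fits at d35 and 3 of 9 at d41-44.

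XX DSD embryos were then set against XX controls of the same age group, which asks whether the pedigree's XX gonads differ from wild-type XX gonads. The days were mixed differently at d37-39, with 2 embryos of d37 and 6 of d39 in XX DSD and 3 of each in XX controls. At d37-39 5 of 32 chains tested were lower in XX DSD embryos (COL9A3, COL27A1, COL18A1, COL9A2 and COL8A2) and 3 were slightly higher (COL6A5/COL6A6, COL11A1 and COL14A1), by limma with adjusted p under 0.05, where 13.8% of all loci passed (5.65% higher and 8.11% lower). The median log2 fold change was 0.02 over the chains, 0.09 over all loci and -0.02 over loci with an annotated gene. The libraries of 3 chains did not overlap, against 6.23% of all loci. With litter as a random block 2 calls were left, and 4 or 5 were left without XX DSD replicate 3, 5 or 8 or XX control replicate 2 or 4. Embryos of d37 alone, 2 XX DSD against 3 XX controls, gave 12 calls, all lower, and those of d39 alone gave 2 higher and 2 lower. The shares of all loci in these refits are not given here, so their counts are not set against a background.

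COL27A1 had 4.46 to 9.07 FPKM in XX DSD embryos (median 5.46) and 10.4 to 15.2 in XX controls (median 12.7). The groups were apart, and the log2 fold change was -0.98 (SE 0.14, adjusted p 0.000562, limma). COL9A3 was likewise apart, with 0.591 to 2.84 FPKM in XX DSD embryos and 3.91 to 5.01 in XX controls (log2 fold change -1.23, SE 0.20, adjusted p 0.00109). COL18A1 had 21.2 to 48.4 FPKM in XX DSD embryos (median 25.3) and 48 to 64.3 in XX controls (median 49.9), with an overlap of less than 1 FPKM (log2 fold change -0.88, SE 0.17, adjusted p 0.00442). COL9A2 averaged 0.465 ± 0.205 in XX DSD embryos and 1.72 ± 1.17 in XX controls and passed the minimum only through the controls. The joint locus of COL6A5 and COL6A6 averaged 53.9 ± 4.86 in XX DSD embryos and 41 ± 4.72 in XX controls, the largest of the increases (log2 fold change 0.39, adjusted p 0.00481).

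**Figure D5:**
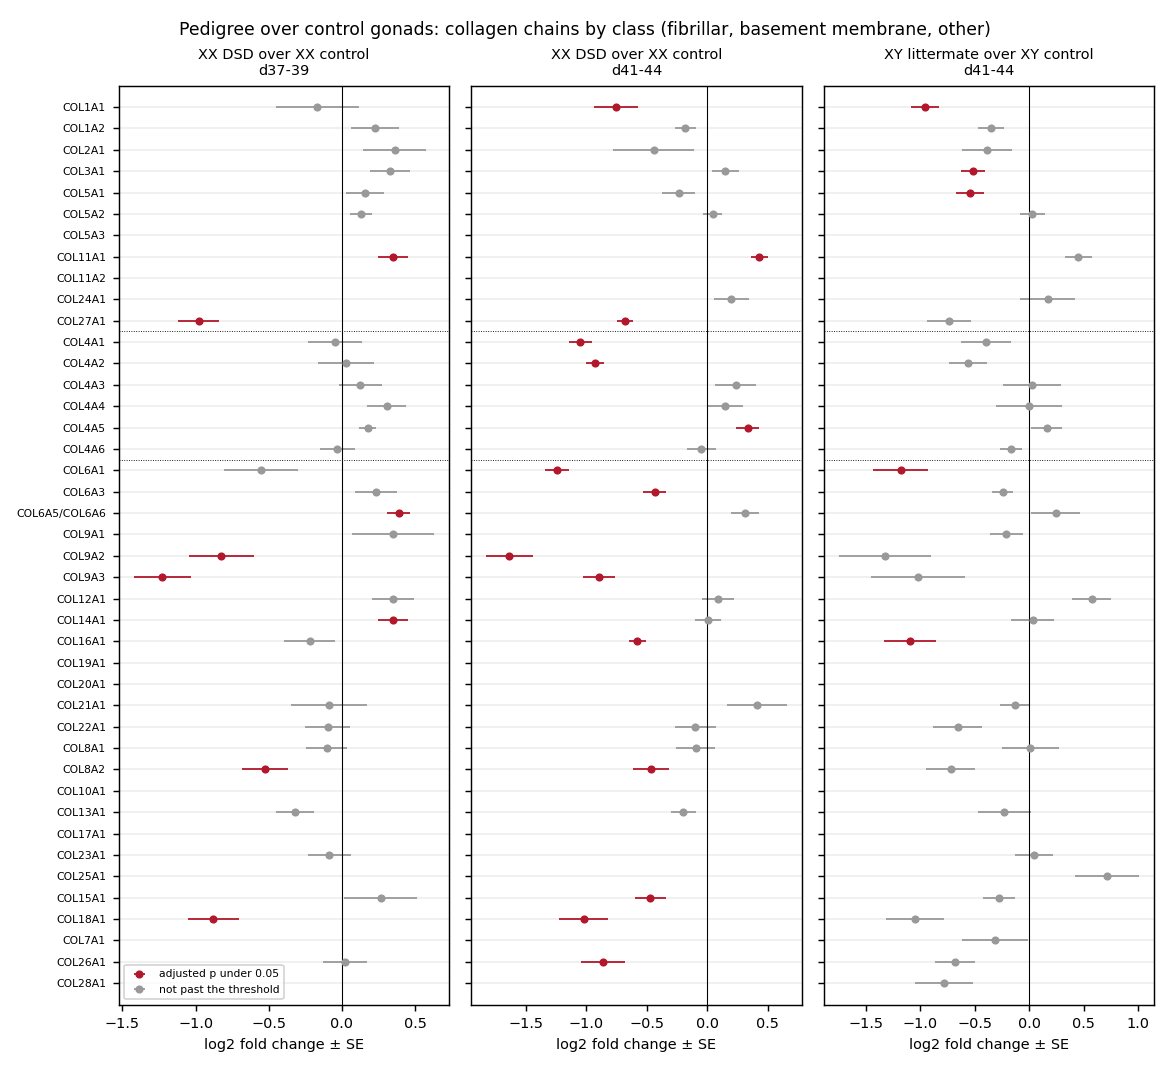
Log2 fold change ± SE of each tested collagen chain, pedigree over control, for XX embryos at both ages and for XY embryos at d41-44. Each of these comparisons has 1 panel, with the chains down the page. Red dots have an adjusted p under 0.05 and dotted lines part the 3 classes. In XX embryos at d41-44 most red dots lie left of 0. Of the chains above 1 FPKM in both groups COL6A1 lies farthest left, at -1.24, and COL9A2, at -1.64, was above 1 FPKM in XX controls alone.

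At d41-44 the differences were more numerous and mostly decreases. XX DSD embryos had less RNA of chains of types I, IV, VI, IX and XVI and of both multiplexins, and more of COL4A5 and COL11A1. Of 31 chains tested 13 were lower and 2 higher, where 48.5% of all loci passed (19.3% higher and 29.2% lower), so the chains passed at the share of all loci (48.4%). The median log2 fold change was -0.20 over the chains and -0.09 over all loci, and 14 chains did not overlap where 46.7% of all loci did not. The XX DSD libraries were the shallower ones, as given above, and the controls came from 1 litter of d44 whereas 5 of the 6 XX DSD embryos were younger. The part of depth was not tested, and age and litter cannot be told apart from the group.

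COL6A1 had 127 to 165 FPKM in XX DSD embryos (median 134) and 311, 363 and 332 in XX controls (log2 fold change -1.24, SE 0.10, adjusted p 1.39e-05, limma). The groups did not overlap. Yet every XX DSD value was also above all 3 XY littermates of that stage, at 42.1, 42.5 and 53.4 FPKM. COL4A1 had 87 to 117 FPKM in XX DSD embryos (median 101) and 193.7, 229.4 and 205 in XX controls (log2 fold change -1.05, SE 0.09, adjusted p 2.38e-05), and COL4A2 had 74.4 to 94.5 in XX DSD embryos and 149, 164 and 159 in XX controls (-0.93, SE 0.07, adjusted p 1.5e-05). These ranges were far apart as well. COL4A5 averaged 35 ± 3.41 in XX DSD embryos and 27.6 ± 3.42 in XX controls (log2 fold change 0.33, adjusted p 0.0176).

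Of the fibrillar chains, COL1A1 had 272 to 453 FPKM in XX DSD embryos (median 330) and 488, 746 and 531 in XX controls (log2 fold change -0.75, SE 0.18, adjusted p 0.00704, limma). COL1A2 overlapped between the groups, with 585 to 719 in XX DSD embryos and 654, 817 and 679 in XX controls, and was not called. COL27A1 was lower, at 5.71 ± 0.465 in XX DSD embryos and 9.75 ± 0.191 in XX controls (log2 fold change -0.68, adjusted p 3.54e-05), and COL11A1 higher, at 37.2 ± 2.76 in XX DSD embryos and 27.3 ± 1.96 in XX controls (0.43, adjusted p 0.000833). The other decreases were COL18A1 (-1.02), COL9A3 (-0.90), COL26A1 (-0.86), COL16A1 (-0.58), COL15A1 (-0.47), COL8A2 (-0.47) and COL6A3 (-0.44), as log2 fold changes. COL9A2 was called too (-1.64, 0.49 FPKM on average in XX DSD embryos and 3.6 in XX controls), and it again reached the minimum through the controls alone and had to differ. The opposite-strand locus inside COL4A2 was called higher (log2 fold change 0.51, adjusted p 0.0147). Since it carries CARKD as well and the reads have no strand, this value cannot be given to an antisense RNA of COL4A2.

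The chains called at both ages were 6: COL8A2, COL9A2, COL9A3, COL18A1 and COL27A1 were lower and COL11A1 was higher, and the samples of the ages were different ones. COL9A2 had to differ to be tested at both. They made up 75% of the 8 called at d37-39 and 40% of the 15 called at d41-44, where the shares over all loci called were 74.7 and 27.5%. The number of annotated genes around the chains differed by direction. At d41-44 the 13 lower chains had a median of 18 annotated loci within 500000 bases, the 16 that did not pass 9.5 and the 2 higher 5. At d37-39 the medians were 20, 10 and 7 for the 5 lower, 24 not passed and 3 higher chains. With a trend on gene density removed from every library, 13 chains passed at d41-44 and 5 at d37-39.

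Genes that act on collagen moved in both directions at d41-44, where 48.5% of all loci passed. Of 17 genes of synthesis and folding 5 were higher and 9 lower in XX DSD embryos (median log2 fold change -0.45, against -0.09 over all loci). PLOD2, a lysyl hydroxylase, averaged 84 ± 4.46 in XX DSD embryos and 38.4 ± 1.47 in XX controls, whereas FKBP10 averaged 69.4 ± 5.57 in XX DSD embryos and 112 ± 5.86 in XX controls (log2 fold changes 1.11 and -0.68, adjusted p 3.97e-06 and 4.85e-05, limma). Of 11 genes of trimming and crosslinking 2 were higher and 7 lower, among them PCOLCE, an enhancer of procollagen cleavage (68.2 ± 5.38 in XX DSD embryos and 145 ± 4.55 in XX controls). GPR56 fell by 1.31 on the log2 scale and the integrin chain ITGB1 was higher by 0.64, among 2 higher and 3 lower of 7 receptors. Of the pre-granulosa markers 5 of 7 were lower and none passed as higher, and of the endothelial markers, whose summed level was 134 to 147 FPKM in XX DSD embryos and 143.5 to 173 in XX controls, 3 of 5 were lower. The part of these cells in the type IV values was not tested.

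XY littermates and XY controls, which share the Y chromosome but not the pedigree and its insertion, were compared in the same way. At d37-39 1 of 33 chains passed, COL18A1, with 60.5, 46.1, 33.9, 38.8 and 53.1 FPKM in XY littermates and 59.1 to 158 in XY controls (median 108). Only the lowest XY control fell within the littermates' range, and the log2 fold change was -1.19 (SE 0.23, adjusted p 0.0432, limma), where 1.29% of all loci passed (0.402% higher and 0.885% lower). The libraries did not overlap for 1 chain, COL9A2 (adjusted p 0.202), beside 2.22% of all loci. The call was lost in 9 of 11 fits that left 1 library out. At d41-44 5 of 36 chains were lower and none passed as higher in XY littermates, where 11.2% of all loci passed (2.63% higher and 8.58% lower), and 19 chains did not overlap, where 41.8% of all loci did not. They were COL6A1 (42.1, 42.5 and 53.4 FPKM in XY littermates against 150, 98.2 and 77.9 in XY controls, log2 fold change -1.18), COL16A1 (47.3, 46.9 and 56.1 against 155, 97 and 83.1, -1.09), COL1A1 (392, 348 and 409 against 811, 771 and 656, -0.96), COL5A1 (-0.55) and COL3A1 (-0.52). All 5 calls were lost when XY littermate 1 or 2 or XY control 1 or 2 was left out. XY littermate 1 is the embryo labelled d41 to which the study's embryo list gives a younger age, though its methods placed it in the oldest group. With litter as a random block 17 chains passed, 3 higher and 14 lower, and with annotated loci alone 14 passed, 2 higher and 12 lower, so the count depends on the model. The shares of all loci that passed under these models are not given here, so the 17 and 14 are not set against a background.

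Whether the pedigree's change differed between the sexes was tested as an interaction across all 4 groups. At d37-39 0 of 34 chains passed and at d41-44 0 of 36, where 0.00514 and 0.115% of all loci passed (limma; 0 and 0.0397% higher, 0.00514 and 0.0749% lower). At an unadjusted p under 0.05 there were 2 and 7. The share of all loci at that threshold was not taken, so these 2 counts say nothing particular about the chains. The lowest p was that of COL3A1 at d41-44, with a difference of 0.66 in log2 fold change (SE 0.16, adjusted p 0.131). All alternatives run gave 0 as well.

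Between ages the main change within the pedigree was in COL21A1. In XX DSD embryos it had 2.18 to 36.3 FPKM at d35 (median 9.44), 25.5 to 67.1 at d37-39 (median 38.6) and 57.2 to 146 at d41-44 (median 102). In XY littermates it had 1.91, 3.56, 2.52 and 2.86 at d35, 6.23, 3.79, 7.87, 26 and 9.87 at d37-39 and 26.1, 34.1 and 28.1 at d41-44. The values of d41-44 exceeded all of d35 in both sexes, with log2 fold changes of 3.08 in XX DSD embryos (SE 0.46, adjusted p 0.000152) and of 3.04 in XY littermates (SE 0.17, adjusted p 6.88e-05, limma). By the means these were 7.14- and 10.8-fold.

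From d35 to d41-44, 9 of 34 chains were higher at the later age and 8 lower in XX DSD embryos, where 35% of all loci passed (13.1% higher and 21.9% lower). The libraries of 9 chains did not overlap, beside 13.5% of all loci. COL12A1 (log2 fold change 1.51), COL13A1 (1.22), COL6A1 (0.98) and COL14A1 (0.89) followed COL21A1, and COL18A1 (-1.21), COL2A1 (-1.07) and COL26A1 (-1.01) led the decreases. COL23A1 (-1.04) and COL9A1, at 0.706 ± 0.192 at d41-44 and 2.5 ± 0.769 at d35, averaged above 1 FPKM at d35 alone and so had to differ to be tested. COL4A3, among the 9 higher, averaged 1.4 FPKM at d41-44 and 0.733 at d35 (log2 fold change 0.47). It reached the minimum at d41-44 alone and so had to differ as well. The median share of FPKM in unannotated loci was 8.64% at d41-44 and 55.2% at d35 in XX DSD embryos, and the median relative depth 0.308 at d41-44 and 0.758 at d35. By the study's embryo list the XX DSD embryos of d41-44 were all homozygous for the insertion, whereas those of d35 included heterozygotes. XY littermates included both genotypes at both ages, with heterozygotes the majority at d41-44 alone, so zygosity also differed between the sexes at that stage. The part of these differences in the change with age was not tested. Without XX DSD replicate 8 of d35 the count in XX DSD embryos stayed at 17. In XY littermates 12 of 34 were higher and 2 lower at d41-44, where 38.4% of all loci passed (15.2% higher and 23.2% lower), and 21 chains did not overlap, beside 46.8% of all loci. COL27A1 (1.47), COL12A1 (1.26) and COL6A5/COL6A6 (1.06) followed COL21A1. The decreases were COL2A1, with 14.2, 10.9 and 7.4 FPKM at d41-44 against 35.4, 77.7, 62.8 and 75.6 at d35 (log2 fold change -2.41, SE 0.32, adjusted p 0.0013), and COL26A1, with 31.9, 32.6 and 35.2 against 154, 132, 135 and 133 (-2.02, SE 0.08, adjusted p 1.77e-05). Neither pair of ranges overlapped. The unannotated share in XY littermates had a median of 12.3% at d41-44 and 40.8% at d35.

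In controls age and litter cannot be told apart, since d44 was 1 litter. In XX controls 5 of 32 chains were higher at d44 than at d37-39 and none passed as lower, where 2.61% of all loci passed (1.96% higher and 0.646% lower), and 10 chains did not overlap, beside 13.4% of all loci. These were COL12A1, COL6A3, COL15A1, COL4A1 (209 ± 18.3 at d44 and 133 ± 14.1 at d37-39) and COL4A2 (157 ± 7.37 and 106 ± 6.76), with log2 fold changes of 0.87, 0.74, 0.74, 0.65 and 0.57. In XY controls 1 of 35 passed, COL2A1, with 15.4, 14.7 and 12.2 FPKM at d44 and 34.2 to 65.2 at d37-39, a log2 fold change of -1.58 with an SE of 0.19 (adjusted p 0.0165, limma), where 0.138% of all loci passed (0.0691% in each direction), and 12 chains did not overlap, beside 6.17% of all loci. These counts fell to 2 and to 0 when single d44 embryos were left out.

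The d34 pools, 1 library a sex and without a replicate, extend the series to an earlier day. COL9A1 was at 1.36 FPKM in the XX pool and 47.2 in the XY pool. COL21A1 was at 2.08 in the XX pool and 0.985 in the XY pool, each below every embryo of the same sex. COL5A2 was at 56.9 and COL11A1 at 32.5 in the XX pool, against 65.8 and 32.4 in the XY pool, and COL26A1 was at 94.1 in the XX pool and 164 in the XY pool. No test was possible on these libraries.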

How the data were processed

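Gonad libraries were made from polyadenylated RNA with an unstranded kit and read single-end. According to the submitters' processing notes, reads were trimmed with cutadapt 1.5 (the study's methods name another version), mapped to CanFam3 with TopHat2 2.0.13 and assembled with Cufflinks 2.2.1, and the authors deposited FPKM per locus from Cuffnorm. A further table of annotated genes was not used here. FPKM were analysed as deposited on the log2(FPKM + 1) scale, which understates the changes of low loci. Loci whose mean reached 1 FPKM in one or both groups were fitted together with limma 3.58.1 (lmFit, eBayes with trend, two-sided) in R 4.3.3 and p-values were adjusted by Benjamini-Hochberg over all of them. Chains passed at an adjusted p under 0.05. Chain ratios were tested by exact permutation in scipy 1.17.1. Depth is known only as a ratio between libraries. No column of other samples was present (0). The fits were tested on simulated data.

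Every locus under the name rule was accounted for. Values were given for the fibrillar and type IV chains, for other chains at 10 FPKM or more in a group or with a 2-fold called change, for the 6 largest calls in each direction, and for up to 4 genes of each list. The members and lists were chosen with earlier results of these data known. The alternatives were a pseudocount of 0.1, no filter, median of ratios scaling, limma without trend, gene density in place of GC content, litter as a block, other placements of days, and each library left out. Annotated loci alone and d37 embryos alone were added after the data were seen.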

Additional observations from a re-analysis of the deposited data

Results flagged for a closer look

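Among 91 sets of values (13 chains in the 7 groups of 4 to 10 embryos), 4 held a library whose gap to its nearest neighbour was large for the range of its group. Chance alone gives about 1 such set in 20. COL21A1 stood at 67.1 FPKM in 1 XX DSD embryo of d37-39, where the other embryos had 25.5 to 44.7, and at 26 FPKM in 1 XY littermate of d37-39, where the others had 3.79 to 9.87. COL16A1 stood at 58.8 FPKM in 1 XX DSD embryo of d37-39, where the others had 22.7 to 39.6. COL13A1 stood at 28.1 FPKM in 1 XX DSD embryo of d37-39, where the others had 16.7 to 22.1.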

How the results depend on the processing

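Of 117 checks of the counts and ratios under the alternatives, 100 kept within 1.5 times the main value and 17 did not. No ratio difference changed sign. The checks of counts took no account of direction, and the shares of all loci that passed under the alternatives are not given beside them. Among the 100 is XX DSD against XX control with d37 embryos alone, with 0 higher and 12 lower against 3 and 5 in the main fit. XX against XY control at d37-39 had 18 calls and 17 to 20 with 1 library left out. XX DSD against XX control at d37-39 had 8 calls, 5 with the density trend removed, 2 with litter as a random block, 4 with d39 embryos alone and 4 to 10 with 1 library left out; d37 embryos alone gave 12, all lower. XY littermate against XY control at d37-39 had 1 call, 0 without trend, with the litter block and with d39 embryos alone, 2 with annotated loci alone and 0 to 3 with 1 library left out. The same comparison at d41-44 had 5 calls, 1 with no filter, 2 with the density trend removed, 0 without trend, 14 with annotated loci alone, 17 with the litter block, 0 without d41 embryos and 0 to 6 with 1 library left out. XX control d44 against d37-39 had 5 calls, 3 with no filter, without trend and with the litter block, and 2 to 6 with 1 library left out. XY control d44 against d37-39 had 1 call, 2 with annotated loci alone and 0 to 2 with 1 library left out. The cause of these shifts was not tested. With 1 library left out, the other counts ran from 11 to 20 (XX against XY control at d44, main 21), 14 to 18 (XX DSD against XX control at d41-44, main 15), 11 to 22, 10 to 14 and 17 to 21 (XX DSD against XY littermate at d35, d37-39 and d41-44, main 17, 12 and 20), and 14 to 19 and 11 to 16 (d41-44 against d35 in XX DSD embryos and XY littermates, main 17 and 14). Both interactions stayed at 0. The log2 ratio differences ran from -0.52 to -0.42 for COL1A1 to COL1A2, -0.24 to -0.20 for COL4A1 to COL4A2, -0.65 to -0.57 for COL4A5 to COL4A6 and -7.00 to -6.64 for COL9A1 to COL9A3. Median of ratios scaling moved the split of higher and lower chains from 0 and 5 to 1 and 3 in XY littermate against XY control at d41-44, and from 9 and 8 to 11 and 6 in XX DSD d41-44 against d35. For single called chains, 1368 values kept and 226 lost the call with 1 library left out, and 1055 kept and 86 lost it under other alternatives. No paired analysis was possible because the labels give no shared replicate numbers; litter was used as a block instead, except at d44, where the controls were 1 litter. The table of annotated genes was not run as an alternative.

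The control litters are few, depth is known only in relative terms, and chains under 1 FPKM are not resolved. Opposite-strand neighbours share reads, and pedigree, sequencing pool and, at d41-44, age and litter cannot be told apart from the group.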
